A study of Mus musculus with 16 samples.

Results

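Tamoxifen was given to mice that lack Mtm1, and its effect on the muscle transcriptome was read from 7 of the 16 quadriceps libraries of the series. The comparison set the treated knockout libraries KO_TAM replicates 13 to 16 against the untreated knockout libraries KO replicates 9, 10 and 11, and KO replicate 12 was used as a check only. Of 41388 annotated genes, 15062 had enough counts to be tested. By the labels all mice were on a C57BL/6 background and were 36 days old at collection. The knockout (mtm1 -/-) removes exon 4 of the X-linked gene in every cell. Treated mice ate chow that carried tamoxifen-citrate, 40 mg/kg per day, with sucrose to make it palatable, from day 21 onwards, and untreated mice were kept without the drug. The sucrose in the treated diet and any change in food intake cannot be told apart from the drug itself. The wild-type arm of the same design, WT replicates 2 to 4 and WT_TAM replicates 5 to 8, shares no library with the knockout comparison and is shown beside it.

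MTM1 is a phosphatase that removes a phosphate from phosphoinositides of endosomal membranes, and its loss causes X-linked myotubular myopathy, in which muscle fibers are small, carry central nuclei and have disordered triads, the junctions where calcium release is triggered. Tamoxifen is a ligand of the estrogen receptors that blocks them in breast and activates them in uterus and bone. Ligand-bound estrogen receptor alpha (Esr1) binds DNA directly at estrogen response elements or through partner factors, and the progesterone receptor gene Pgr and Greb1 are among its best known targets.

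The 7 libraries held between 26005229 and 29847222 counted reads, with the treated ones (28272239 to 29847222) all deeper than the untreated ones (26005229 to 28171147). The skeletal muscle markers were abundant in each of them, with a summed level of 102000 to 121000 CPM (counts scaled to a common library size) in KO and 98400 to 138000 in KO_TAM. Mtm1 itself had 76, 63 and 76 counts in KO, and it had 53, 97, 93 and 92 in KO_TAM. The wild-type libraries used here had 341 to 369, while the library labelled WT replicate 1, not used in any main comparison, had 74, which lies in the knockout range. KO replicate 10 stood apart from the other untreated knockouts, with 4257 counts of the cartilage collagen Col2a1 against 55 and 97, and 922 counts of the neutrophil gene S100a9 against 6 and 2. KO replicate 12 had the lowest share of mitochondrially encoded reads, 2.85% against 4.67 to 6.1% in KO and 3.91 to 6.24% in KO_TAM.

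At the level of single genes the treated and untreated knockouts separated weakly. The quasi-likelihood test of edgeR called 0 of 15062 genes (0%) at the study's threshold, an adjusted p of 0.01 or less, and the lowest adjusted p was 0.06, shared by 8 genes. At an unadjusted p of at most 0.05 it gave 1137 genes, of which 462 (3.07% of those tested) were higher in KO_TAM and 675 (4.48%) were lower. By chance 753.1 would be found at that level. The study used adjusted p-values from both DESeq and edgeR. Here DESeq2 stood in place of DESeq, so the counts need not match those of the study. At this threshold DESeq2 called 72 genes, the exact test of edgeR called 73, and both called 64. Of these 64, 37 (0.246% of the genes tested) were higher with tamoxifen and 27 (0.179%) were lower. They are described below as the genes called by both tools. Their quasi-likelihood adjusted p ran from 0.06 to 0.208, so none of them passed the main test. That limit also holds where a DESeq2 adjusted p is printed for one of them below. The libraries of the groups did not overlap for any of the 64, against 7.69% of all tested genes. The 64 were selected on these same libraries, which favors such separation, so it adds no support to the calls. KO replicate 12 lay outside the treated range on the untreated side for 56 of the 64. With KO replicate 12 added both tools called 56 genes, 46 of them among the 64, and without KO replicate 10 they called 43, 29 of them among the 64. In all 9 sets of libraries tried (the main one, with KO replicate 12 added, and with each of the 7 left out), 15 genes were called by both tools, namely Alox12, Angptl4, Gpx3, Pdk4, Gria1, Gm9747, Tgm3, BC005764, Greb1, Mmd2, Flrt1, Pthlh, Socs3, Dio3 and RP23-8J15.2.

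Genes known to respond to estrogen receptor ligands were among those most strongly higher in treated knockout muscle. Of 22 tested members of the estrogen response list, 7 were higher and 1 was lower at an unadjusted p of at most 0.05, against 3.07% and 4.48% of all genes, and 4, Pgr, Greb1, Oxtr and Wisp2, were called by both tools. This list and those below were written with earlier results of these data known. That choice can raise such counts, so their comparison with all genes is descriptive only. Pgr, which encodes the progesterone receptor, had 0, 0 and 2 counts in KO and 23, 29, 31 and 27 in KO_TAM. Every treated library held more Pgr reads than all untreated ones together, a ratio of 37.9 with a counting interval of 10.2 to 317. Greb1, a co-regulator of the estrogen receptor, had 5, 8 and 5 counts in KO and 43, 38, 56 and 40 in KO_TAM, a log2 fold change of 2.77 (SE 0.41, DESeq2 adjusted p = 1.73e-05). Oxtr, the oxytocin receptor, had 29, 8 and 10 counts in KO and 117, 76, 71 and 266 in KO_TAM, with a log2 fold change of 3.03 (SE 0.63, DESeq2 adjusted p = 3.79e-05). The edgeR quasi-likelihood adjusted p of Oxtr was 0.187. The treated libraries were spread widely for Oxtr, yet the lowest of them was above the highest untreated one. Wisp2, a secreted matricellular protein also named Ccn5, had 107, 81 and 65 counts in KO and 349, 161, 335 and 229 in KO_TAM (log2 fold change 1.59, SE 0.31).

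Smaller differences were seen in other members of that list. Nrip1, a corepressor of nuclear receptors, was higher by a log2 fold change of 0.64 (edgeR quasi-likelihood adjusted p = 0.278), and Xbp1, a transcription factor of the unfolded protein response, by 0.50 (adjusted p = 0.361). Igf1, the growth factor gene, was lower at a log2 fold change of -0.52 (adjusted p = 0.53), with 1953, 3025 and 1718 counts in KO and 1642, 1384, 1852 and 1714 in KO_TAM. The groups overlapped for Igf1. The median of the list was 0.195, against -0.0095 over all genes tested, and without KO_TAM replicate 16 it was 0.04. The receptors themselves did not pass any test. Esr1 had 591, 473 and 454 counts in KO and 443, 408, 451 and 561 in KO_TAM, a log2 fold change of -0.19 (SE 0.17, edgeR quasi-likelihood adjusted p = 0.875). Esr2, the gene of estrogen receptor beta, stayed under the filter with 6, 10 and 6 counts in KO and 17, 10, 7 and 9 in KO_TAM.

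The start sites of Pgr, Greb1 and Oxtr, the called estrogen response genes with the largest fold changes, are shown as RefSeq promoter windows on GRCm38.p6, 250 bases before to 50 bases after the annotated start, read 5′ to 3′ on the strand of the gene. Capitals mark the half-site TGACCT, sought on both strands, so that its reverse complement is also in capitals. Windows are given for Pgr at chr9:8899583-8899882 (+), for 1 of the pair of windows of Greb1 at chr12:16800837-16801136 (-) and for Oxtr at chr6:112489776-112490075 (-).
Pgr: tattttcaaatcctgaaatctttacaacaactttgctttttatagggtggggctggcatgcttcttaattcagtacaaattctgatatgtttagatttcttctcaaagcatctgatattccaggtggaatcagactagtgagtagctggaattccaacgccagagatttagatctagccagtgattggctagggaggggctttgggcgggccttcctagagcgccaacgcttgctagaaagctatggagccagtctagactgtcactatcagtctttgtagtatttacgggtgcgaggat
Greb1: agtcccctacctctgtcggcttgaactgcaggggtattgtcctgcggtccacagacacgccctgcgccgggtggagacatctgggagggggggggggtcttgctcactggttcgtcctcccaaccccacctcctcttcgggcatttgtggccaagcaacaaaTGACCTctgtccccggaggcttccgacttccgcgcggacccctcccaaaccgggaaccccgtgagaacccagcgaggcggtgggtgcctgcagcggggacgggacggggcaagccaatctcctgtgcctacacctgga
Oxtr: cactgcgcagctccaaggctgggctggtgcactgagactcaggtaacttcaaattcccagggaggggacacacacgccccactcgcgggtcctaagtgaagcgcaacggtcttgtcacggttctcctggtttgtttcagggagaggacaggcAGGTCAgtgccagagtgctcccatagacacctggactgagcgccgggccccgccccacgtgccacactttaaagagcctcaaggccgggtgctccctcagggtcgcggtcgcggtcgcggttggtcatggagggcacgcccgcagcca

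The Pgr window held 0 half-sites and that of Oxtr held 1. The Greb1 window shown held 1, and the other one, at chr12:16757190-16757489 (-), held 0. Among the genes called higher by both tools 21 had a promoter window, and 4 of these (19%) held the half-site, against 18.1% of 27025 genes with a window, so the share was near that of all genes. The full palindrome GGTCANNNTGACC, which contains the half-site less its last base, was in 0 of the 21 and in 0.074% of all genes. These matches describe only the letters of the windows.

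The highest fold changes outside that list belonged to genes close to silent in untreated knockout muscle. Flrt1, a fibronectin and leucine-rich repeat membrane protein of cell adhesion and growth factor signaling, had 19, 51 and 42 counts in KO and 1280, 496, 352 and 1375 in KO_TAM, at a log2 fold change of 4.52 (SE 0.60, DESeq2 adjusted p = 1.63e-07). Mmd2, a membrane protein of the progestin and adipoQ receptor family, had 17, 7 and 1 counts in KO and 104, 116, 160 and 213 in KO_TAM (log2 fold change 4.05, SE 0.57). Each treated library of these genes lay several-fold above the untreated ones. Tgm3, a transglutaminase that crosslinks proteins, had 1, 1 and 0 counts in KO and 57, 64, 19 and 55 in KO_TAM, a ratio of 67.1 with a counting interval of 18.3 to 558. Aqp5, a water channel best known from glands, had 5, 0 and 0 counts in KO and 160, 57, 62 and 124 in KO_TAM, with all untreated reads in a single library. Gria1, a subunit of AMPA-type glutamate receptors, had 2, 9 and 0 counts in KO and 102, 132, 63 and 46 in KO_TAM (log2 fold change 4.42, SE 0.72). Lack of overlap between the groups was a condition of the rule by which these genes were named. KO replicate 12 sided with the untreated libraries in each, at 61 counts for Flrt1, 5 for Gria1 and 0 for Mmd2, Tgm3 and Aqp5.

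Pthlh, the gene of parathyroid hormone-related protein, had 26, 58 and 20 counts in KO and 261, 137, 132 and 188 in KO_TAM, at a log2 fold change of 2.31 (SE 0.42, DESeq2 adjusted p = 1.17e-05). BC005764, a lipid phosphatase-related protein named Plppr3 in GENCODE vM21, had 6, 17 and 5 counts in KO and 87, 54, 70 and 47 in KO_TAM. More abundant genes were called as well, although with smaller folds. Gpx3, the secreted selenium-dependent glutathione peroxidase, had 5241, 3988 and 4758 counts in KO and 10100, 8544, 11957 and 8125 in KO_TAM, or 153 ± 22.8 CPM (SD, n = 3) against 302 ± 44.1 (SD, n = 4). It was the only called member of the glutathione, selenium and NRF2 list. In that list 2 of 25 tested genes, Gpx3 and Nfe2l2, were higher at an unadjusted p of at most 0.05 and 0 were lower. The shares over all genes were 3.07% and 4.48%. In sign the list was split, with 12 higher and 13 lower estimates. Fbp2, the muscle isoform of fructose-1,6-bisphosphatase, had 717, 615 and 1283 counts in KO and 3137, 1699, 1975 and 2323 in KO_TAM (log2 fold change 1.34, SE 0.29). The plot of the higher genes shows these values by library.

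**Figure D1:**
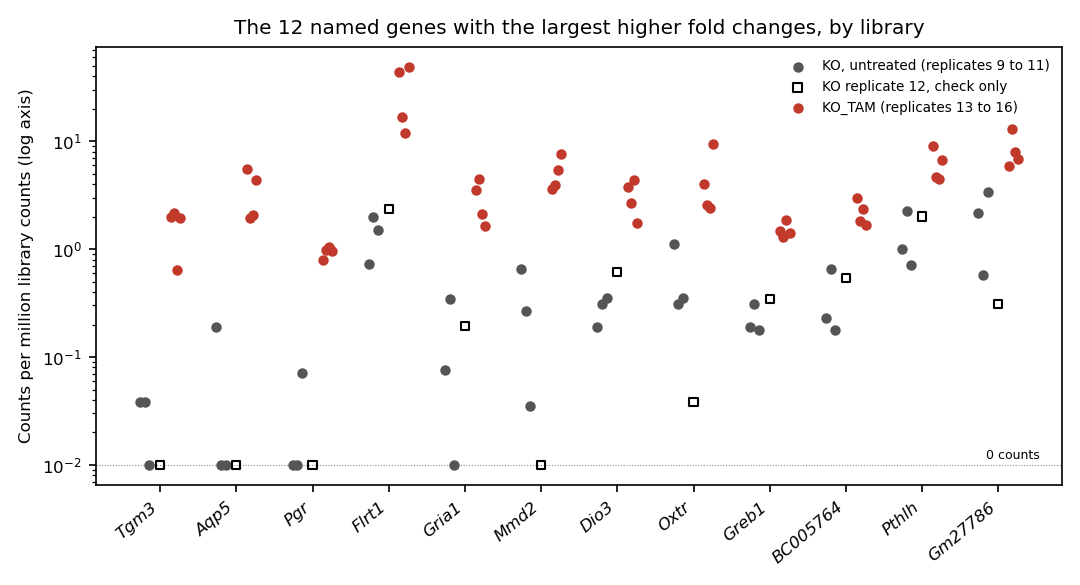
CPM by library total (log axis) of the 12 genes with the largest higher fold changes among those called by both tools, one point per library, for KO replicates 9 to 11 (grey), KO replicate 12 (open square) and KO_TAM replicates 13 to 16 (red). Libraries with 0 counts are drawn on the dotted line. For each gene the 4 treated libraries lie above the 3 untreated ones, which the choice of genes required. Levels run from Tgm3 with 0 or 1 counts in KO to Flrt1 with up to 1375 counts in KO_TAM.

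The wild-type arm allowed the same genes to be measured in libraries that had no part in their selection. Of the 37 genes called higher in the knockout, 36 were tested in wild type, 33 of them had the same sign there and 22 (61.1%) were higher at an unadjusted p of at most 0.05, against 4.67% of all 14544 genes tested in wild type. Of the 27 genes called lower, 26 were tested, 23 had the same sign and 15 (57.7%) were lower at that level, against 5.98% of all genes. The sign was shared by 90.3% of the called genes, and by 60.7% of the 14280 genes tested in both arms. None of the called genes went the opposite way in wild type at an unadjusted p of at most 0.05. The quasi-likelihood test called 19 genes (0.131%) in wild type at the same threshold, and 7 of the 64 were among them: Gpx3, Fbp2, Pgr, Flrt1 and Oxtr higher, and Cxcl14 and C7 lower.

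Flrt1 gave the clearest wild-type difference of these, with 37, 16 and 25 counts in WT and 2615, 2301, 2508 and 2611 in WT_TAM (log2 fold change 6.69, SE 0.23, edgeR quasi-likelihood adjusted p = 1.25e-06). Its treated wild-type libraries all lay above its treated knockout libraries, which ranged from 352 to 1375. Pgr had 0 counts in the 3 WT libraries and 41, 41, 42 and 39 in WT_TAM, at least 43.4-fold higher when the untreated group is set at 3 counts. Oxtr had 6, 1 and 6 counts in WT and 137, 212, 200 and 160 in WT_TAM, a log2 fold change of 5.41 (SE 0.40). The fold change in wild type was above that in the knockout for each of these genes, yet the test of the difference gave an edgeR quasi-likelihood adjusted p of 0.934 for Flrt1 and of 1 for Pgr and Oxtr.

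**Figure D2:**
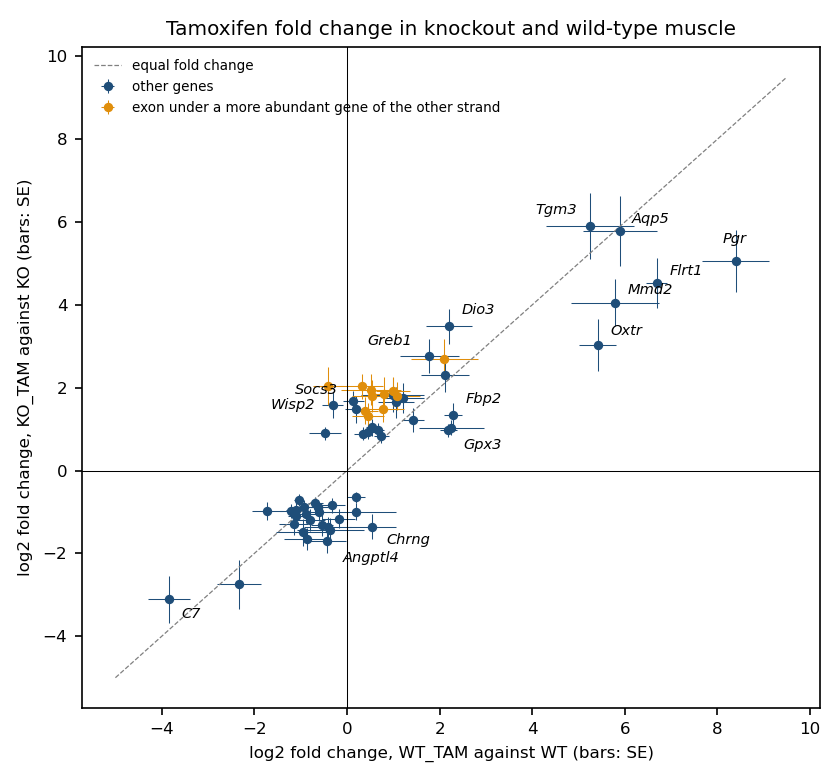
Log2 fold change with tamoxifen in knockout muscle (vertical axis, KO_TAM against KO) and in wild-type muscle (horizontal axis, WT_TAM against WT) for the 62 genes called by both tools in the knockout and tested in wild type, with bars for the SE of each estimate and a dashed line of equal change. Of these, 56 lie in the quadrants of shared sign, and Flrt1, Oxtr and Pgr lie below the dashed line while Socs3, Wisp2 and Chrng lie near or across the vertical zero line. Genes with 0 counts in a group, such as Pgr in wild type, are placed with the help of the model's prior count.

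A difference in response between genotypes was tested with the interaction term over 14 libraries, which called 0 of 15556 genes (0%) at the same threshold and gave 664 (4.27%) at an unadjusted p of at most 0.05. DESeq2 called 12. Among the 64 called genes 19 had an interaction p of at most 0.05. The 64 were selected on knockout libraries that also enter the interaction, which favors low p-values. That count therefore cannot decide whether the genotypes differ in response. Socs3, a feedback inhibitor of cytokine signaling through JAK and STAT, had 255, 192 and 167 counts in KO and 590, 541, 1116 and 594 in KO_TAM (log2 fold change 1.69, SE 0.24). In wild type it had 138, 203 and 160 counts without the drug and 190, 146, 199 and 158 with it, a log2 fold change of 0.14 (SE 0.22). The interaction for Socs3 was 1.57 on the log2 scale with an edgeR quasi-likelihood adjusted p = 0.337. Wisp2 likewise was higher in treated knockouts, while its wild-type counts were 97, 133 and 141 without and 94, 84, 113 and 86 with tamoxifen (interaction 1.91, adjusted p = 0.314). Gpx3 differed in size and not in sign, at a log2 fold change of 0.97 in the knockout and 2.19 in wild type (interaction -1.21, adjusted p = 0.27). None of these passed adjustment over all genes in the quasi-likelihood test. Which genes DESeq2 called for the interaction is not reported here.

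The lowest interaction p-values belonged to genes whose level differed with tamoxifen in wild type and less so in the knockout. Amd1, the S-adenosylmethionine decarboxylase of polyamine synthesis, had 8039, 11908 and 12108 counts in WT and 2119, 3155, 2464 and 2567 in WT_TAM, but 1693, 1957 and 2191 in KO and 1484, 1403, 1695 and 2417 in KO_TAM (interaction p of 2.85e-05 unadjusted and 0.27 adjusted, edgeR quasi-likelihood). Amd1 stood at 422 ± 113 CPM (SD, n = 3) in WT, 108 ± 15.1 (SD, n = 4) in WT_TAM and 63.6 ± 6.65 (SD, n = 3) in KO. Of its 50-base stretches 78.1% are shared with Amd2, so its counts may be split. Odc1, the ornithine decarboxylase of the same pathway, had a log2 fold change of 1.40 (SE 0.14) in wild type and 0.24 (SE 0.15) in the knockout (interaction adjusted p = 0.27). Rcan1, an inhibitor of calcineurin, had a log2 fold change of -1.03 in wild type and 0.37 in the knockout, and Exoc3l4 of -2.12 and -0.53. Fbxl13 had 0 counts in every WT_TAM library against 6, 13 and 6 in WT, while the knockout counts, 25 to 44 untreated and 30 to 78 treated, overlapped.

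Some of the called genes lie on the opposite strand of a much more abundant gene, and whether the counting used strand is not given in the sources used here, so reads of the partners may not be separable. Of the 37 genes called higher, 11 had an exon overlapping an exon of an opposite-strand gene with at least 10 times their mean CPM, and of the 27 called lower 0 did. Ube2c, a ubiquitin-conjugating enzyme of mitosis, is one of them. It had 4063, 6560 and 12044 counts in KO and 23696, 17771, 20336 and 16603 in KO_TAM, and it overlaps Tnnc2, fast skeletal troponin C, which had a mean of 9360 CPM in KO and 10200 in KO_TAM. KO replicate 12 had 23114 counts of Ube2c, more than every other untreated knockout and most treated ones. The others were Gm27786 (opposite H19), Gm9747 (Irs1), Gm20721 (Gnas), Gm12841 (Atp6v0b), Gm17275 (H3f3a), Gm11100 (Thoc7), 4930506C21Rik (Mpc1), B130046B21Rik (Prkag1), Habp2 (Nrap) and BC005764 (Ptbp1).

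Across all tested genes 624 met the same overlap rule, and their median log2 fold change was 0.22 against -0.01 for the other 14438, with 63.8% of them higher in KO_TAM against 47.5% of the others. Their summed level was 1963, 2111 and 2683 CPM in KO and 3716, 3244, 3134 and 2915 in KO_TAM, so that all treated libraries were above the untreated ones. KO replicate 12, at 3463 CPM, lay within the treated range. The part of this difference in the calls was not tested. Without these genes, 26 higher and 27 lower calls remained.

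Several genes of the fat oxidation list were lower in treated knockout muscle. Of 25 tested members of the fat oxidation list 5 were lower and 1 was higher at an unadjusted p of at most 0.05, against 4.48% and 3.07% of all genes. The median was -0.16, but it ran from -0.28 without KO replicate 11 to 0.02 without KO replicate 9. Pdk4, the kinase that shuts off pyruvate dehydrogenase in fasting, had 35604, 16748 and 38653 counts in KO and 8324, 14019, 15081 and 12427 in KO_TAM, or 992 ± 386 CPM (SD, n = 3) against 387 ± 73.1 (SD, n = 4). Its log2 fold change was -1.37 (SE 0.26, DESeq2 adjusted p = 1.19e-04), and KO replicate 12 had 27270 counts. Angptl4, a secreted inhibitor of lipoprotein lipase, had 1599, 644 and 979 counts in KO and 286, 284, 518 and 317 in KO_TAM (log2 fold change -1.71, SE 0.28, DESeq2 adjusted p = 6.38e-06). KO replicate 10 had the lowest untreated value of both genes, and it was still above each treated library. The uncoupling protein genes were below the calling threshold, with Ucp2 at a log2 fold change of -0.72 and Ucp3 at -0.97. Enzymes of fatty acid oxidation did not pass an unadjusted p of 0.05. Among them Cpt1b stood at 0.31, Acadm at 0.06, Acadvl at 0.01, Acadl at -0.08 and Hadha at -0.18. Ppargc1a, the coactivator of mitochondrial gene expression, had 650, 659 and 589 counts in KO and 1141, 879, 829 and 1147 in KO_TAM (log2 fold change 0.60, edgeR quasi-likelihood adjusted p = 0.411).

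In wild-type muscle Pdk4 and Angptl4 differed less with the drug. Pdk4 had a log2 fold change of -0.42 (SE 0.50) there and Angptl4 of -0.44 (SE 0.41), and the interaction gave an edgeR quasi-likelihood adjusted p of 1 for both. A difference between genotypes was therefore not shown. Food intake was not read from these files, and its part in the levels of these genes was not tested.

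**Figure D3:**
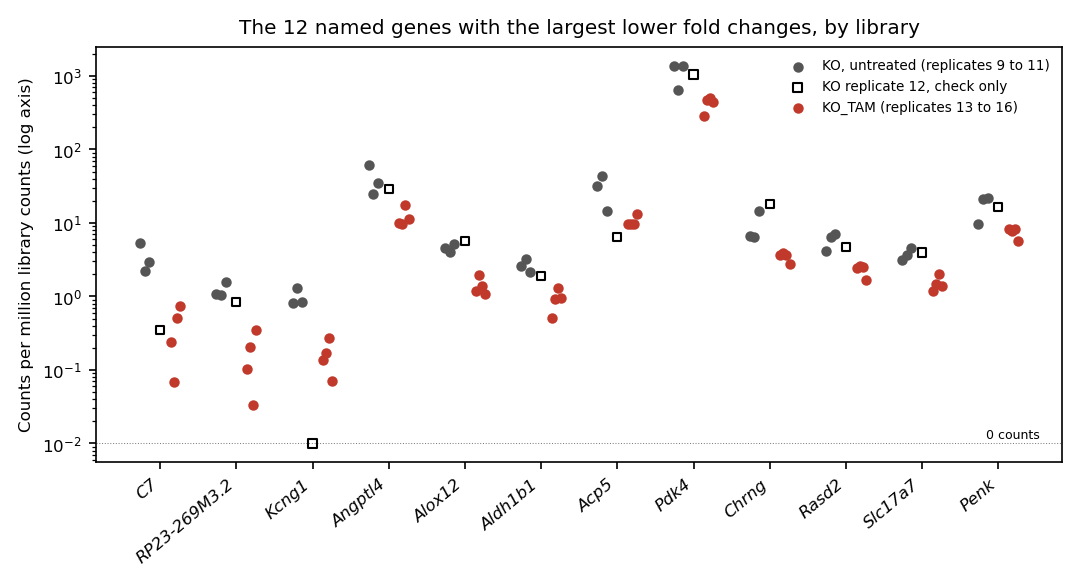
CPM by library total (log axis) of the 12 genes with the largest lower fold changes among those called by both tools, one point per library, for KO replicates 9 to 11 (grey), KO replicate 12 (open square) and KO_TAM replicates 13 to 16 (red). The treated libraries lie below the untreated ones for each gene, which the choice of genes required. KO replicate 12 lies within or below the treated values for C7, Kcng1 and Acp5.

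Among the atrophy and FoxO genes 3 of 25 were lower and 2 were higher at an unadjusted p of at most 0.05, against 4.48% and 3.07% of all genes. Txnip, which blocks glucose uptake and binds thioredoxin, had 14759, 17050 and 17690 counts in KO and 8188, 7355, 13733 and 10027 in KO_TAM (log2 fold change -0.84, SE 0.18). Igfbp5, a binding protein of insulin-like growth factors, had 12557, 17436 and 12051 counts in KO and 7574, 7498, 10273 and 7004 in KO_TAM (log2 fold change -0.88, SE 0.17). Both were called by both tools and neither overlapped between the groups. Igfbp5 was lower in wild type too, at a log2 fold change of -0.93 (edgeR quasi-likelihood adjusted p = 0.0869).

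Genes of denervated or regenerating muscle were lower in part. Of 21 tested members 5 were lower and 1 was higher at an unadjusted p of at most 0.05, against 4.48% and 3.07% of all genes, and 1 was called by both tools. The median of -0.165 turned sign with 1 library left out, from -0.34 without KO replicate 10 to 0.06 without KO replicate 11. Chrng, the fetal subunit of the muscle acetylcholine receptor, had 171, 166 and 413 counts in KO and 105, 116, 111 and 78 in KO_TAM, a log2 fold change of -1.36 (SE 0.30, DESeq2 adjusted p = 0.00666). The edgeR quasi-likelihood adjusted p of this difference was 0.191. KO replicate 12 had 468 counts of Chrng, the highest of the 8 knockout libraries. The wild-type libraries had 14, 20 and 15 without and 33, 10, 31 and 15 with tamoxifen. In KO against WT, which shares the untreated knockouts with the main comparison and called 531 of 14740 genes (3.6%), its log2 fold change was 3.65 (edgeR quasi-likelihood adjusted p = 0.00158). The treated knockouts were therefore between the untreated knockouts and wild type for Chrng.

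Chrne, the adult receptor subunit, had a log2 fold change of -0.68 and Myog, the transcription factor myogenin, of -0.50, with edgeR quasi-likelihood adjusted p of 0.513 and 0.54. Nmrk2, a nicotinamide riboside kinase of muscle, had 4664, 3324 and 5216 counts in KO and 987, 702, 851 and 3931 in KO_TAM. KO_TAM replicate 16 alone lay in the untreated range of Nmrk2. Ankrd1, a stretch-responsive titin-binding protein, went the other way with 5500, 3197 and 7331 counts in KO and 8581, 19504, 14204 and 7453 in KO_TAM (log2 fold change 1.12), and KO replicate 12 had 10689.

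Several genes of imprinted regions were higher in treated knockouts. Of 25 tested members of the imprinted list 6 were higher and 1 was lower at an unadjusted p of at most 0.05, against 3.07% and 4.48% of all genes, with a median of 0.109 (0.18 without KO replicate 11). The maternally expressed noncoding RNAs Meg3, Rian and Mirg lie in a row on chromosome 12 with the paternally expressed Dlk1 on one side and Dio3 on the other. Rian, at chr12:109603940-109661716, had 2369, 4319 and 2499 counts in KO and 10585, 7132, 6417 and 5653 in KO_TAM, a log2 fold change of 1.22 (SE 0.28, DESeq2 adjusted p = 0.0021). The edgeR quasi-likelihood adjusted p of Rian was 0.206. Mirg had 100, 225 and 119 counts in KO and 496, 359, 362 and 197 in KO_TAM (log2 fold change 1.18), and Meg3 had 1765, 3616 and 2516 in KO and 5957, 4544, 3770 and 3215 in KO_TAM (log2 fold change 0.66). Only Rian of these was called, and KO_TAM replicate 13 had the highest value of each. With KO replicate 12 added Rian was no longer called by both tools. KO replicate 12, at 5189 counts of Meg3, lay within the treated range of that gene.

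Dio3, which encodes the deiodinase that inactivates thyroid hormone and lies at chr12:110279068-110281097, had the lowest p of all 15062 genes in the edgeR quasi-likelihood test (adjusted p = 0.06). It had 5, 8 and 10 counts in KO, 16 in KO replicate 12 and 110, 78, 131 and 49 in KO_TAM, a log2 fold change of 3.48 (SE 0.43). In wild type it had 3, 3 and 4 counts without and 11, 15, 15 and 19 with tamoxifen, which also did not overlap, and its log2 fold change was 2.21 (SE 0.50). The interaction gave an adjusted p of 1 for Dio3, so a difference between genotypes was not shown. Dlk1, a Notch ligand-like membrane protein, had 89, 134 and 124 counts in KO and 349, 187, 346 and 100 in KO_TAM, with KO_TAM replicate 16 in the untreated range. In the thyroid hormone list, which also holds Dio3, 1 of 9 tested genes was higher and 1, the corepressor Hr, was lower at an unadjusted p of at most 0.05. The shares over all genes were 3.07% and 4.48%.

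Igf2 and H19 lie on chromosome 7 and are expressed from opposite parental alleles. Igf2, the fetal growth factor, had 2329, 1957 and 2428 counts in KO and 4571, 5260, 5069 and 3038 in KO_TAM, a log2 fold change of 0.92 (SE 0.17, DESeq2 adjusted p = 2.22e-04). GENCODE vM21 holds a second gene model, Gm49394, on the same strand, and 62.1% of the 50-base stretches of Igf2 are shared with other genes, so part of its counts may be split. H19 was higher in the knockout with tamoxifen at a log2 fold change of 0.48 (edgeR quasi-likelihood adjusted p = 0.642) and lower in wild type at -0.60 (adjusted p = 0.083). The plot of imprinted genes shows that the treated libraries of Dlk1, Meg3, Mirg and H19 overlapped the untreated ones, while those of Rian, Dio3 and Igf2 did not.

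**Figure D4:**
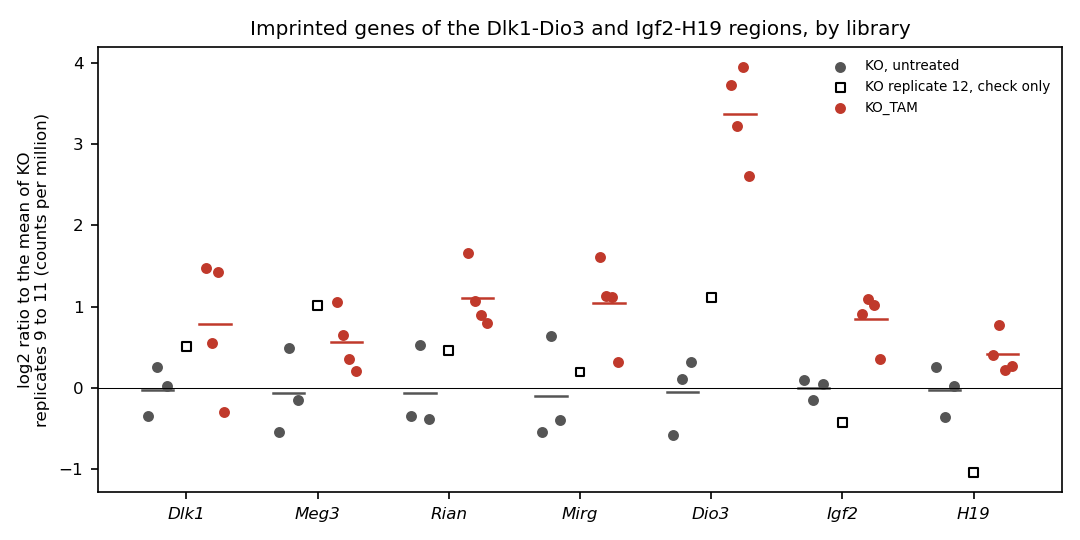
Log2 ratio of CPM to the mean of KO replicates 9 to 11 for imprinted genes of the Dlk1-Dio3 region (Dlk1, Meg3, Rian, Mirg, Dio3) and for Igf2 and H19, one point per library with short lines at the group means. Treated libraries (red) reach 3.95 for Dio3 and 1.66 for Rian, and KO replicate 12 (open square) stands at 1.02 for Meg3 and at -1.03 for H19.

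Several genes of the circadian clock and its output were higher in treated knockouts. Of 19 tested members 14 were higher and 5 lower, 8 were higher at an unadjusted p of at most 0.05 (against 3.07% of all genes) and 0 were lower, and the median was 0.358. Per2, a repressor of the core clock, had 287, 191 and 254 counts in KO and 496, 648, 581 and 393 in KO_TAM (log2 fold change 1.03, SE 0.18, DESeq2 adjusted p = 2.53e-04) and was the only called member. The edgeR quasi-likelihood adjusted p of Per2 was 0.125. Nr1d2, the repressor REV-ERB beta, had a log2 fold change of 0.37. Others at that unadjusted level were Hlf at 0.97, Per3 at 0.59, Ciart at 0.56, Bhlhe40 at 0.42 and Tef at 0.36. The hour of tissue collection is not given in the sources used here, and its part in these values was not tested. KO replicate 12 lay below all of the 7 other knockout libraries for Per2, at 50 counts, and the summed level of the list was 717 CPM there against 906 to 970 in KO and 1070 to 1200 in KO_TAM. With that library added Per2 was no longer called by both tools. In wild type Per2 had 139, 120 and 40 counts without and 634, 875, 162 and 122 with tamoxifen, which overlapped.

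Among genes of the mitochondrial genome, some of those with fewer counts were lower in treated knockouts. Of 13 tested genes 11 were lower, 6 of them at an unadjusted p of at most 0.05, against 4.48% of all genes, and 0 were higher at that level. The median of -0.142 ran from -0.30 without KO_TAM replicate 16 to -0.03 without KO_TAM replicate 15, and was -0.01 with KO replicate 12 added. The 6 were mt-Co2, mt-Co3, mt-Atp6, mt-Atp8, mt-Nd3 and mt-Nd4l, which encode subunits of cytochrome oxidase, ATP synthase and complex I. In contrast mt-Co1, with far more counts (576396, 342838 and 468931 in KO), had a log2 fold change of -0.11. Others of high level stood at -0.14 (mt-Cytb), -0.09 (mt-Nd4), -0.07 (mt-Nd5), -0.05 (mt-Nd2) and 0.01 (mt-Nd1). None of these passed an unadjusted p of 0.05, and the groups overlapped for each. Only mt-Co2 was called, with 4118, 4476 and 3909 counts in KO and 2863, 1916, 2127 and 2524 in KO_TAM (log2 fold change -0.89, SE 0.18, DESeq2 adjusted p = 0.00288). Of its 50-base stretches 100% are found in other genes, first of all Gm28661, a nuclear copy on chromosome 1 that is named RP23-8J15.2 in the count table and was called as well (log2 fold change -0.87), so reads of this pair may be split between them. Such sharing was not measured for the others of the 6, so their low counts cannot be read as low transcript levels. mt-Co3 had 2500, 1284 and 1797 counts in KO and 1119, 882, 884 and 1177 in KO_TAM, while KO replicate 12 had 757, below all of these. The 6 transcripts were lower in wild type too, at log2 fold changes of -0.63 to -0.90. The 36 nuclear genes of the respiratory chain had a median of 0.0852 (-0.03 without KO_TAM replicate 13), and 0 passed an unadjusted p of 0.05 in either direction.

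Genes of the matrix went both ways, with 4 of 32 higher and 5 lower at an unadjusted p of at most 0.05, against 3.07% and 4.48% of all genes. Lamb3, a chain of laminin 332, had 25, 38 and 15 counts in KO and 102, 94, 121 and 61 in KO_TAM (log2 fold change 1.76, SE 0.36), and Spon1, the secreted protein F-spondin, had a log2 fold change of 0.98 (SE 0.18). Col6a6, a collagen VI chain, had 531, 423 and 511 counts in KO and 304, 255, 166 and 234 in KO_TAM, a log2 fold change of -1.09 (SE 0.22). In wild type Col6a6 was lower by the same estimate, -1.09 (SE 0.18). C7, a terminal component of complement, had 138, 58 and 83 counts in KO and 7, 2, 15 and 21 in KO_TAM (log2 fold change -3.11, SE 0.56), but KO replicate 12 had 9. With that library added C7 and Spon1 were no longer called by both tools. In wild type C7 had 223, 147 and 296 counts without and 8, 5, 24 and 20 with the drug. In the complement list 1 of 19 tested genes was higher and 1 lower at an unadjusted p of at most 0.05, near the shares over all genes.

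Markers of endothelial cells had a median log2 fold change of -0.318. The estimate was below 0 for all 10 tested markers, 4 of them passed an unadjusted p of 0.05 (against 4.48% of all genes lower at that level) and 1 was called, and their summed level was 389 to 530 CPM in KO and 297 to 446 in KO_TAM, which overlapped. Cldn5, the claudin of endothelial tight junctions, was the called one, with 728, 974 and 628 counts in KO and 501, 330, 345 and 408 in KO_TAM (log2 fold change -1.04, SE 0.22), and KO replicate 12 had 1857. Fewer endothelial cells and less RNA per cell cannot be told apart in bulk muscle. The vessel-associated collagens Col4a2 and Col15a1 were lower as well, at log2 fold changes of -0.42 and -0.46 (edgeR quasi-likelihood adjusted p = 0.548 and 0.456).

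For the other marker lists the summed levels of the groups overlapped in CPM, and no marker of fat cells, red blood cells or nerve and Schwann cells passed an unadjusted p of 0.05. Over all genes 3.07% were higher and 4.48% lower at that level. Fat cell markers summed to 1720 to 5390 CPM in KO and 2310 to 4590 in KO_TAM, and leukocyte markers, of which S100a8 and S100a9 were lower at that level, to 163 to 256 and 161 to 261. Nearly all untreated S100a9 reads were in KO replicate 10, as given above. Without that library the leukocyte median was 0.31 in place of -0.0179. Fibroblast markers summed to 4030 to 5490 and 4070 to 4930, and 1 of 11, Fbln1 (fibulin 1), was lower at that level and called by both tools (log2 fold change -0.79, SE 0.14). Satellite cell markers summed to 272 to 318 and 260 to 310, with 1 of 7 tested, Chodl, lower at that level. Tendon and cartilage markers ran from 195 to 810 CPM in KO, where KO replicate 10 was highest, and from 187 to 305 in KO_TAM, and 7 of the 8 had a lower estimate. Without KO replicate 10 the median of that list was 0.33 in place of -0.893. Acp5, an acid phosphatase of osteoclasts and macrophages that was called lower, had 819, 1135 and 416 counts in KO and 285, 287, 288 and 375 in KO_TAM, and 166 in KO replicate 12, below the treated range.

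Further called genes with lower levels belonged to no list. Alox12, a lipoxygenase of arachidonic acid, had 120, 105 and 144 counts in KO and 35, 58, 42 and 31 in KO_TAM (log2 fold change -1.65, SE 0.26, DESeq2 adjusted p = 1.37e-05), and KO replicate 12 had 148. Aldh1b1, a mitochondrial aldehyde dehydrogenase, had a log2 fold change of -1.49, Rasd2, a small GTPase, of -1.31, Slc17a7, a vesicular glutamate transporter, of -1.30 and Penk, the precursor of enkephalins, of -1.20. The noncoding RNA RP23-269M3.2 had 28, 27 and 44 counts in KO and 3, 6, 1 and 10 in KO_TAM. Kcng1, a potassium channel subunit, had 21, 34 and 24 counts in KO and 4, 5, 8 and 2 in KO_TAM, but 0 in KO replicate 12.

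Lists closest to the structural defect of myotubular myopathy held few differences. Among 21 tested phosphoinositide genes and modifiers of the disease 0 passed an unadjusted p of 0.05, with a median of 0.0748 (0.04 without KO_TAM replicate 14 to 0.15 without KO_TAM replicate 13) and a range of -0.214 to 0.341. Dnm2, the membrane-severing GTPase dynamin 2, had 1528, 1567 and 1738 counts in KO and 1415, 1620, 1827 and 1486 in KO_TAM, a log2 fold change of -0.11 (SE 0.11, edgeR quasi-likelihood adjusted p = 0.899). Pik3c2b, a class II phosphoinositide 3-kinase, had a log2 fold change of 0.10 (SE 0.19, adjusted p = 0.945), and the groups overlapped for both genes. Mtm1 had a log2 fold change of 0.14 (SE 0.26, adjusted p = 0.945). The pair of lowest p in that list were Mtmr14 and Pik3c3, at log2 fold changes of 0.33 and 0.21.

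Of 24 triad and calcium release genes 1 was higher and 1 lower at an unadjusted p of at most 0.05, near the 3.07% and 4.48% of all genes. Cacna1s, the voltage sensor of the transverse tubule, had 18129, 13569 and 18028 counts in KO and 22272, 27828, 23401 and 21532 in KO_TAM (log2 fold change 0.44, SE 0.16, edgeR quasi-likelihood adjusted p = 0.487), without overlap. Dysf, the membrane repair protein dysferlin, had 3004, 4590 and 7681 counts in KO and 2550, 2865, 4375 and 3044 in KO_TAM (log2 fold change -0.75, SE 0.26, edgeR quasi-likelihood adjusted p = 0.469), with overlap. Among genes of slow and 2A fibers 2 of 13, Myoz2 and Myh7b, were higher at that level, at log2 fold changes of 0.56 and 0.55. None was lower at that level, against 3.07% higher and 4.48% lower of all genes. Of the 13 genes 5 had a higher and 8 a lower estimate, with a median of -0.00712. Myh7 stood at -0.59 and Myh2 at 0.43, and the groups overlapped for both. Of 10 genes of fast 2B fibers 0 passed, and Pvalb and Tnnt3, which had the lowest p of that list, stood at -0.32 and 0.21.

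The remaining lists held 0 genes at an unadjusted p of at most 0.05 or 1 in each direction, against 3.07% higher and 4.48% lower of all genes. Proteasome subunits had a median of 0.117 (0.03 without KO replicate 9 to 0.26 without KO replicate 11), and 25 of 26 had a higher estimate, with Psmd12 at 0.25 and Psma6 at 0.22. Glucose and glycogen genes had a median of 0.0705 (0.03 without KO_TAM replicate 13 to 0.15 without KO replicate 11), with Ugp2 at 0.33 and Slc2a1 at 0.29. The cholesterol synthesis list, with 11 of 23 higher and 12 lower, held Hsd17b7 at -0.50 and Fdft1 at 0.32. Among genes of proliferating cells Mcm6, a subunit of the replicative helicase, had a log2 fold change of 0.68 and Rrm2, a subunit of ribonucleotide reductase, of -0.60. Without KO replicate 10 the median of the proliferation list was 0.79 in place of 0.058. The plot of the pathway lists shows all members tested.

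**Figure D5:**
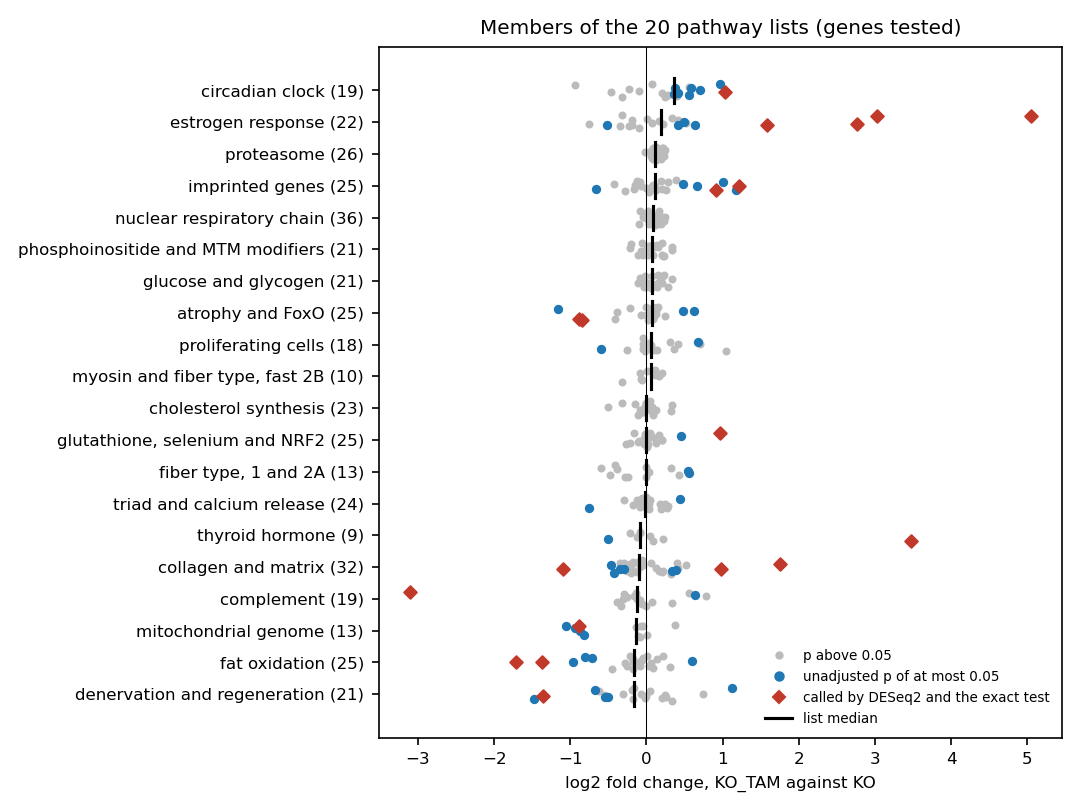
Log2 fold change, KO_TAM against KO, of each tested member of the 20 pathway lists, with the number tested in parentheses, ordered by the list median (black bar). Blue points have an unadjusted p of at most 0.05 and red diamonds were called by DESeq2 and the exact test. The medians run from 0.358 for the circadian clock to -0.165 for denervation and regeneration, and the called genes lie mostly far from the medians of their lists.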

How the data were processed

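Quadriceps RNA of 16 mice was sequenced on an Illumina HiSeq 2500 after TruSeq preparation. The raw counts were made by the authors by aligning reads in a pair of steps to GRCm38 with STAR (2.5.0c per the submitters' processing notes) and counting per gene with HTSeq. These deposited counts are whole and unscaled. The deposited RPKM values are these counts scaled by the authors to library total and gene length (largest relative deviation 4.59e-04 over 3913 genes), with the depth kept in the counts. The sources used here give no strand setting, counting mode or annotation. Identical pairs of libraries numbered 0 of 120.

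The members, the 29 gene lists and the rules for named genes were chosen with earlier results of these data known. KO replicate 12 and WT replicate 1 were left out of the main fits, as in the study. The main test was edgeR 4.0.16 in R 4.3.3, quasi-likelihood, with TMM factors, filterByExpr (minimum count 10, minimum total 15) and Benjamini-Hochberg adjustment over all genes tested at 0.01. DESeq2 1.42.0, the edgeR exact test, limma 3.58.1 on log2(RPKM + 0.1) and log2(RPKM + 1), other scalings, other filters, 1 fit over all groups and each library left out were alternatives. Fold changes are log2 and SEs are those of the model. CPM values in the text are scaled by TMM over 16 libraries, those of the plots by library total. Counting intervals are exact at 95% and cover counting error only, as does the floor of 3 counts. Nothing in the labels says more of the replicates than that they are separate mice of a group, so p-values measure the spread between these libraries. Scripts were tested on simulated data.

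Named were, among genes called by both tools whose groups did not overlap and whose mean count reached 20 in 1 group or more, the 12 higher and the 12 lower with the largest fold change, then Mtm1, Esr1, Esr2, Pgr, Dnm2 and Pik3c2b, the 5 with the lowest p in the main test and in the interaction, and in each pathway list the called members or else the 2 with the lowest p, together with markers of cell types. Other genes named, among them Fbp2, Ube2c, Cxcl14, Cldn5 and list members with an unadjusted p of at most 0.05, were chosen after their values were seen. Some list members are counted but not reported here by name. Gene positions and overlaps come from GENCODE vM21 and promoter windows from RefSeq, both on GRCm38.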

Additional observations from a re-analysis of the deposited data

Results flagged for a closer look

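Within the groups of 4 treated libraries, 10 of 127 sets of values of the named genes held a library set apart from the other 3 by Dixon's rule, and chance gives about 1 in 20. In KO_TAM, replicate 13 had 333 CPM of Myoz2, a Z-disc protein of slow fibers, against 221 to 225 in the others. The same library had 278 CPM of Pdk4 against 416 to 432, and 18.6 CPM of Pik3c2b against 27.9 to 29.7. KO_TAM replicate 15 had 0.545 CPM of Tgm3 against 1.84 to 1.93. In WT_TAM, replicate 6 had 30 CPM of Myoz2 against 84.2 to 89.6, 178 CPM of Rian against 306 to 319 and 8.91 CPM of Tgm3 against 1.43 to 2.54. WT_TAM replicate 5 had 10.2 CPM of Penk against 4.29 to 5.18 and 178 CPM of Psma6 against 146 to 150. WT_TAM replicate 8 had 5.64 CPM of Hsd17b7, a reductase of sterol and estrogen synthesis, against 4.65 to 4.8.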

How the results depend on the processing

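In KO_TAM against KO the main count of 0 called genes became 72 with DESeq2, 73 with the edgeR exact test, 64 with both, 12 with no filter and 2 in 1 fit over all 4 groups. It ran from 0 to 1 with each library left out in turn (1 without KO replicate 9 and 1 without KO_TAM replicate 16), and was 0 with limma on RPKM, the other scalings, the stricter filter, KO replicate 12 added and a threshold of 0.05. The genes called by both tools ran from 41 without KO_TAM replicate 15 to 103 without KO_TAM replicate 16, a set of alternatives chosen after seeing the data. In WT_TAM against WT the count of 19 became 214 with DESeq2, 178 with the exact test, 167 with both, 81 with no filter, 80 at a threshold of 0.05 and 12 with WT replicate 1 added, and 2 (without WT replicate 4) to 21 with each library left out. The interaction gave 12 with DESeq2 and otherwise 0.

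Of 1121 values of 63 named genes under the alternatives 2 changed sign, Fbxl13 (-0.03 without KO_TAM replicate 14 to 0.48 with each library left out) and Pik3c2b (-0.02 without KO replicate 11 to 0.30). With each library left out the list median ran from 0.04 to 0.26 for estrogen response, from 0.24 to 0.38 for the circadian clock, from -0.12 to 0.15 for thyroid hormone, from 0.12 to 0.18 for imprinted genes, from -0.13 to 0.11 for collagen and matrix, from -0.21 to 0.79 for proliferating cells, from -0.60 to 0.48 for red blood cells, from -0.16 to 0.31 for leukocytes and from -1.25 to 0.33 for tendon and cartilage. With KO replicate 12 added the medians of the clock and imprinted lists were 0.41 and 0.21, and with library size alone that of the clock was 0.32. The cause was not tested. The study's supplement says that the sequenced samples came from littermates. No paired analysis was possible because the labels used here do not give the litter of each mouse. With 3 untreated libraries, low counts set the precision of Pgr, Tgm3, Aqp5, Esr2 and Kcng1.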

Other observations

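Further genes called by both tools in treated knockout muscle belong to none of the lists and were chosen after their values were seen. Smyd2, a lysine methyltransferase expressed in heart and skeletal muscle, had 1595, 1457 and 2313 counts in KO and 4573, 4085, 3939 and 2829 in KO_TAM (log2 fold change 1.04, SE 0.20, DESeq2 adjusted p = 3.05e-04). Its exons share 24.7% of their 50-base stretches with other gene models, most with the antisense Gm37422. In KO against WT its log2 fold change was -1.36, with untreated WT counts of 4594, 3133 and 3823. Nog, the secreted BMP antagonist noggin, had 56, 125 and 73 counts in KO and 212, 219, 412 and 174 in KO_TAM, while in wild type it had 89, 72 and 115 without and 84, 92, 97 and 121 with tamoxifen. The difference between genotypes did not pass adjustment for Nog in the quasi-likelihood test. Gadd45b, a stress-responsive gene also linked to DNA demethylation, had 217, 314 and 266 counts in KO and 543, 578, 547 and 432 in KO_TAM. In wild type its estimate had the other sign, with 463, 447 and 881 counts without and 659, 301, 377 and 273 with the drug, which overlapped.

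On the lower side, Cxcl14, a chemokine of stromal cells, had 1943, 1834 and 2023 counts in KO and 1111, 1282, 1707 and 957 in KO_TAM (log2 fold change -0.71, SE 0.14), and in wild type its log2 fold change was -1.04 (SE 0.10, edgeR quasi-likelihood adjusted p = 0.00295). Dkk2, a secreted modulator of Wnt signaling, had 316, 609 and 417 counts in KO and 241, 237, 265 and 236 in KO_TAM, and Golga7b, a Golgi-associated protein, had 317, 356 and 333 in KO and 151, 215, 165 and 192 in KO_TAM. In wild type their log2 fold changes were -1.11 and -1.21, with edgeR quasi-likelihood adjusted p of 0.0458 and 0.0561, and neither passed the threshold of 0.01. Rhob, a small GTPase of endosomes and the cytoskeleton, had 3697, 3435 and 4227 counts in KO and 2018, 2649, 2639 and 2853 in KO_TAM, but KO replicate 12 had 2089, inside the treated range, and the wild-type estimate was 0.20 (SE 0.19). Cyp2e1, a cytochrome P450, had 2675, 1756 and 3699 counts in KO and 1513, 1588, 1403 and 1247 in KO_TAM, and KO replicate 12 had 742. With KO replicate 12 added, Nog, Gadd45b, Cxcl14, Rhob and Cyp2e1 were no longer called by both tools, while Smyd2, Dkk2 and Golga7b were.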
